A study of Mus musculus with 250 samples.

Results

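The genes described are the glutamate and GABA receptor subunit genes of mouse astrocytes, chosen by their names alone (Gria, Grik, Grin, Grid and Grm genes followed by a number, Gabr genes of the a, b, d, e, g, p, q and r series, and Gabbr genes). The name rule found 49 of the 24490 gene rows. Of these, 47 code for a receptor subunit. The other two only carry a matching name, among them Grin1os, an antisense transcript at Grin1. A read was found for 34 of the 47 subunit genes and for 1 of the other two.

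The study read full-length polyadenylated RNA of 250 single brain cells, which the sample titles call astrocytes. They came from adult C57BL/6 mice, about 3 months old, of the genotype SM22-Cre;Rosa26-stop-tdTomato, and had no treatment named in the labels. In such mice the promoter of the smooth muscle gene Tagln (SM22) drives the Cre recombinase, which switches on a red reporter. Cells were sorted by fluorescence into wells of 384-well plates and prepared with Smart-seq2, a method without molecular identifiers. None of the sources used here gives the gate, the number of animals or the reporter state of each cell. The cell names have a plate prefix, Brain.VSMC2 for 162 cells and Brain.VSMC3 for 88 cells, called plate 2 and plate 3 below. Each sample is 1 cell and no animal is named, so the 250 cells are 1 group without biological replicates, and no test between groups could be made. The spread given with a mean is the SD between cells.

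Glutamate and GABA are the main excitatory and inhibitory transmitters of the brain, and astrocytes take up both and also carry receptors for them. Ionotropic receptors (AMPA, kainate, NMDA and GABA-A) are channels built from several subunits, so a cell needs a suitable set of subunit genes. Metabotropic glutamate receptors and GABA-B receptors act through G proteins, and in astrocytes G protein receptors are known for evoking calcium signals.

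Levels are given as CPM, a gene's reads per 1000000 counted reads of the cell. From 10 CPM upward a gene counts as detected, which is 2.82 reads in the median cell. Of the 35 member rows with a read, 8 reached detection in at least 50% of the cells, where 5.92% of all 16367 genes with a read passed the same rule. The 8 genes are Gria1 and Gria2 (AMPA), Gabbr1 and Gabbr2 (GABA-B), Gabrb1 and Gabrg1 (GABA-A), Grm3 (metabotropic) and Grin2c (NMDA), and they are called the common subunit genes below. They held 88.0% of the summed mean CPM of all member rows, 3165 of 3598 CPM. The median over the 35 rows was nearer to that of all genes, with a mean level of 15.4 CPM against 14.9 CPM and detection in 6.8% against 8% of the cells.

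The start sites of 4 members, chosen after their values were seen, are shown because each pair sets a common gene beside a rare one. Gabrg1 and Gabra2 are neighbours in a GABA-A gene cluster on chromosome 5, but Gabrg1 was detected in 159 cells and Gabra2 in 20. Grin2c and Grin1 code for partners in 1 NMDA receptor, but Grin2c was detected in 158 cells and Grin1 in 5. The sequences are the 250 bases upstream of each annotated start, on the gene's own minus strand, from RefSeq on GRCm38.p6. Capitals mark the CG dinucleotides, which are dense in CpG island promoters. No annotated gene of the GENCODE M21 annotation overlaps the windows, which are chr5:70842618-70842867 for Gabrg1, chr5:71095850-71096099 for Gabra2, chr11:115267244-115267493 for Grin2c and chr2:25319188-25319437 for Grin1.
Gabrg1: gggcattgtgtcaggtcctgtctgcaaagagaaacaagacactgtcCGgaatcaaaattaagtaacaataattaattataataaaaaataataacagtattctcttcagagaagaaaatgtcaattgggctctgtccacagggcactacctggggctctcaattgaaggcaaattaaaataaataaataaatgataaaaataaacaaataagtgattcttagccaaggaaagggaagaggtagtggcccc
Gabra2: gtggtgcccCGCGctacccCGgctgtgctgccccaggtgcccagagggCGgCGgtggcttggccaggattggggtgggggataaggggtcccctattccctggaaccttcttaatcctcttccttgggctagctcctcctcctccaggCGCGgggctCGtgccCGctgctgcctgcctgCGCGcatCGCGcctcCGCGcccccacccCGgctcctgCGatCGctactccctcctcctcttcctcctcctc
Grin2c: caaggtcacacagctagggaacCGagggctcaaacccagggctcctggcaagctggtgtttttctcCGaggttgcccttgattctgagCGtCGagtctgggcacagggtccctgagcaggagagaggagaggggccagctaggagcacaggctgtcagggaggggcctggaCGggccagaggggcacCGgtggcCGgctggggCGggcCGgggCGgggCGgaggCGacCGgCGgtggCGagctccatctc
Grin1: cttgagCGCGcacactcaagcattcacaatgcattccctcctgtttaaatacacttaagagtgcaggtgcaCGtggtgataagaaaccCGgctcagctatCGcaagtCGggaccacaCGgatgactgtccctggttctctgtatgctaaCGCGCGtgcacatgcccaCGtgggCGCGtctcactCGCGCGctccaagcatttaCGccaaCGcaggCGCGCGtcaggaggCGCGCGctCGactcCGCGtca
The window of Gabrg1 held 1 CG dinucleotide and 35.6% G or C bases, while that of its rarely detected neighbour Gabra2 held 18 CG dinucleotides and 70% G or C bases. Grin2c had 15 and the nearly undetected Grin1 had 27. The RefSeq table had a start for 34 of the 49 members, with 42 member start sites among 32851 in all. The median count was 9 CG dinucleotides at member start sites and 6 at all start sites. The 8 start sites of common subunit genes, which cover 7 of these genes, had a median of 15.5 CG dinucleotides (range 1 to 37), and the 34 start sites of other members had a median of 8.5 (range 0 to 42). In both pairs shown the common gene thus had fewer CG dinucleotides than the rare one, while the medians of the 2 sets lay the other way round, with ranges that overlapped. A palindromic site for nuclear factor I, a family of glial transcription factors, was searched as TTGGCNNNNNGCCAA, which reads the same on both strands. It was in 0 of the 42 member windows and in 12 of all 32851 windows (0.0365%). A site this rare would hardly be met in any 42 windows, so the 0 says nothing about these genes.

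The table of cells held 102161 to 564958 reads per cell (median 282290.5), with medians of 256247.0 on plate 2 and 391071.5 on plate 3. Of 16 astrocyte markers, among them Gja1, Aldoc, Slc1a2 and Slc1a3, every cell had 11 to 16. Of these markers 15 were in at least 50% of the cells, while Gfap was detected in 32 cells (12.8%). Of 14 neuron markers no single one was in 50% of the cells, and a cell had 0 to 5 of them, with a summed level of 0 to 2464 CPM (median 40.0 CPM). The neuron markers ran from Stmn2 in 56 cells (22.4%), Snap25 in 39 and Nefm in 32 down to Slc17a7, a marker of excitatory neurons of the forebrain, in 1 and Slc32a1, a marker of inhibitory neurons, in 0. A cell had at most 1 of 7 oligodendrocyte precursor markers. Of 10 markers of the mural cells of vessels, a cell had 0 to 3. They ran from Notch3 in 93 cells (37.2%) and Acta2 in 39 (15.6%) over Tagln in 5 down to Kcnj8 and Abcc9 in 0. Of 9 oligodendrocyte markers, 32 cells had 3 or more.

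Levels of different genes can be set side by side only per length, since a longer transcript gives more reads. Per kb of merged exons, Gria1 led with 109.8 CPM per kb, followed by Grm3 with 86.5 CPM per kb and Gabbr1 with 66.8 CPM per kb. Gabrg1 had 50.4 CPM per kb, Grin2c 35.2 CPM per kb, Gabrb1 34.1 CPM per kb, Gria2 33.8 CPM per kb and Gabbr2 22.2 CPM per kb. Gabra4 came next with 9.69 CPM per kb, and the other 25 subunit genes with a read ranged down to 0.0889 CPM per kb for Grin1. The first 3 genes and Gabbr2 at the eighth place held their ranks on both plates, while the 4 genes between them changed places. Gria1 had 123 CPM per kb on plate 2 and 84.6 CPM per kb on plate 3, a range that overlapped that of Grm3 (89.8 and 80.4 CPM per kb). The plate values of Gabbr1 (61.7 and 76.2 CPM per kb) lay below those of Grm3. With the length of the longest transcript in place of merged exons, the same 8 genes led, but in a changed order. Gabbr1 then had 98.8 CPM per kb and lay above Grm3 with 86.5 CPM per kb, so their order depended on the length used. Gria2 moved from 33.8 to 50.6 CPM per kb and from the seventh to the fifth place. The plot of length-scaled levels by family shows the gap below Gabbr2.

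**Figure D1:**
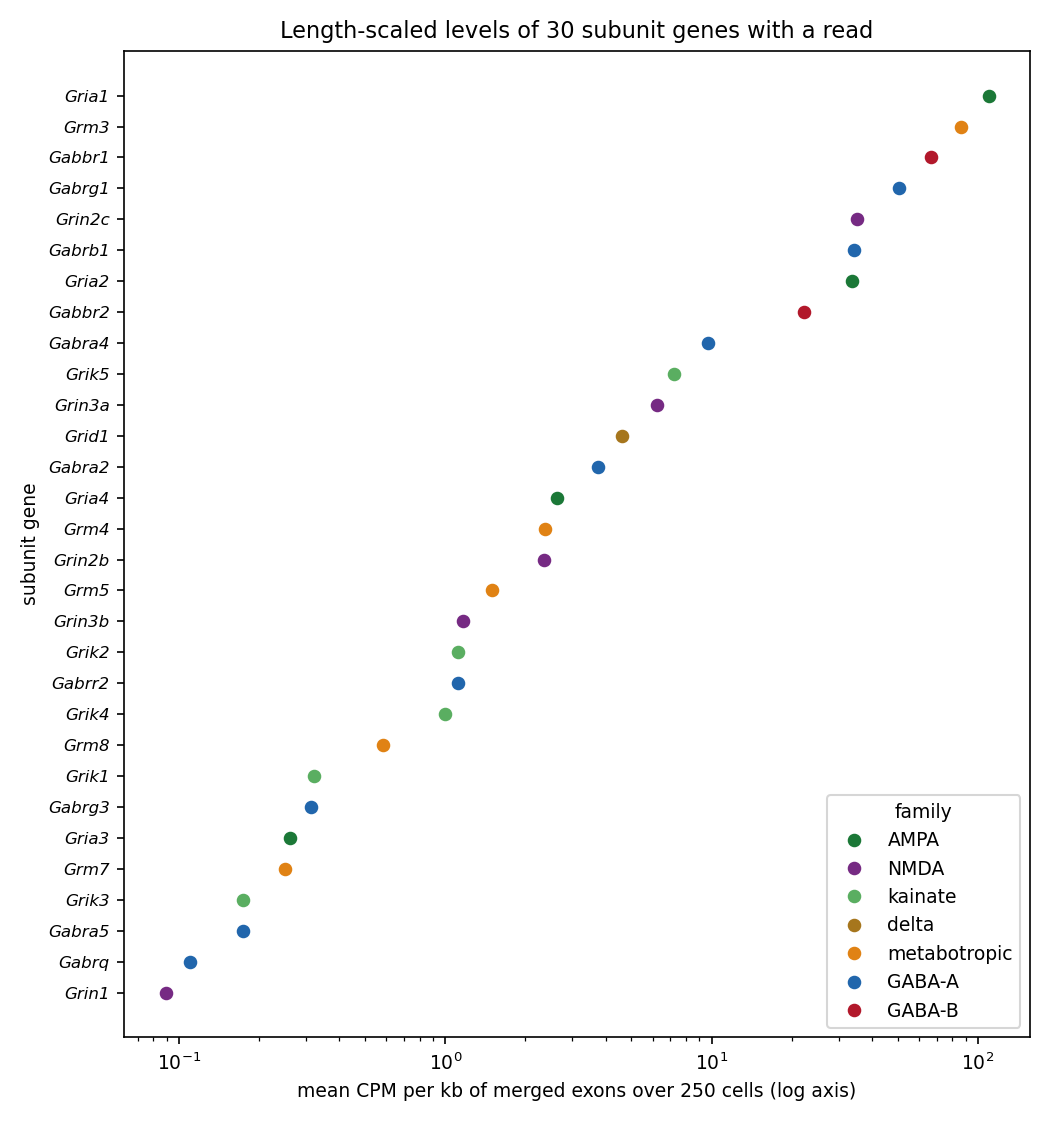
Mean level of 30 of the subunit genes with a read, in CPM per kb of merged exons over 250 cells, on a log axis, with colours for the receptor families. The 8 common subunit genes lie between 22.2 and 109.8 CPM per kb, and the next gene, Gabra4, lies at 9.69 CPM per kb.

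AMPA receptors are the glutamate-gated channels of fast transmission, and channels that lack the Gria2 product let calcium pass. Gria1 (chromosome 11, 57011387 to 57330244, plus strand) was detected in 221 of the 250 cells, 88.4% (exact 95% interval 83.8 to 92.1%). Its level ran from 0 over a median of 518 CPM to 4071 CPM, with a mean of 663 ± 683 CPM (SD, n = 250 cells). Gria2 (chromosome 3, 80681450 to 80802835, minus strand) was detected in 193 cells, 77.2% (71.5 to 82.3%), with levels from 0 over a median of 355 CPM to 4136 CPM and a mean of 525 ± 637 CPM. So most astrocytes had reads of both genes, but the SD between cells was about as large as the mean for each.

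Both genes were detected in 172 cells (68.8%), Gria1 alone in 49 cells (19.6%), Gria2 alone in 21 cells (8.4%) and neither in 8 cells (3.2%). Within a cell, Gria1 made up a median of 80.9% of the pair's level per kb of merged exons (quartiles 45.6 and 97.6%, 247 cells with a read of either). By the longest transcript the mean of Gria2 rises from 33.8 to 50.6 CPM per kb and that of Gria1 from 109.8 to 119.6 CPM per kb. The balance was not computed with those lengths. Gria1 held over 90% of the pair in 93 cells and under 10% in 33 cells, so the balance ran from one end to the other among cells. Of the other AMPA subunit genes, Gria4 was detected in 16 cells, its mean was 16.6 ± 77.1 CPM and its highest value 618 CPM. Gria3 was detected in 2 cells, and 1 of them held 79.5% of its reads. Any AMPA subunit gene was detected in 243 cells (97.2%, interval 94.3 to 98.9%).

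**Figure D2:**
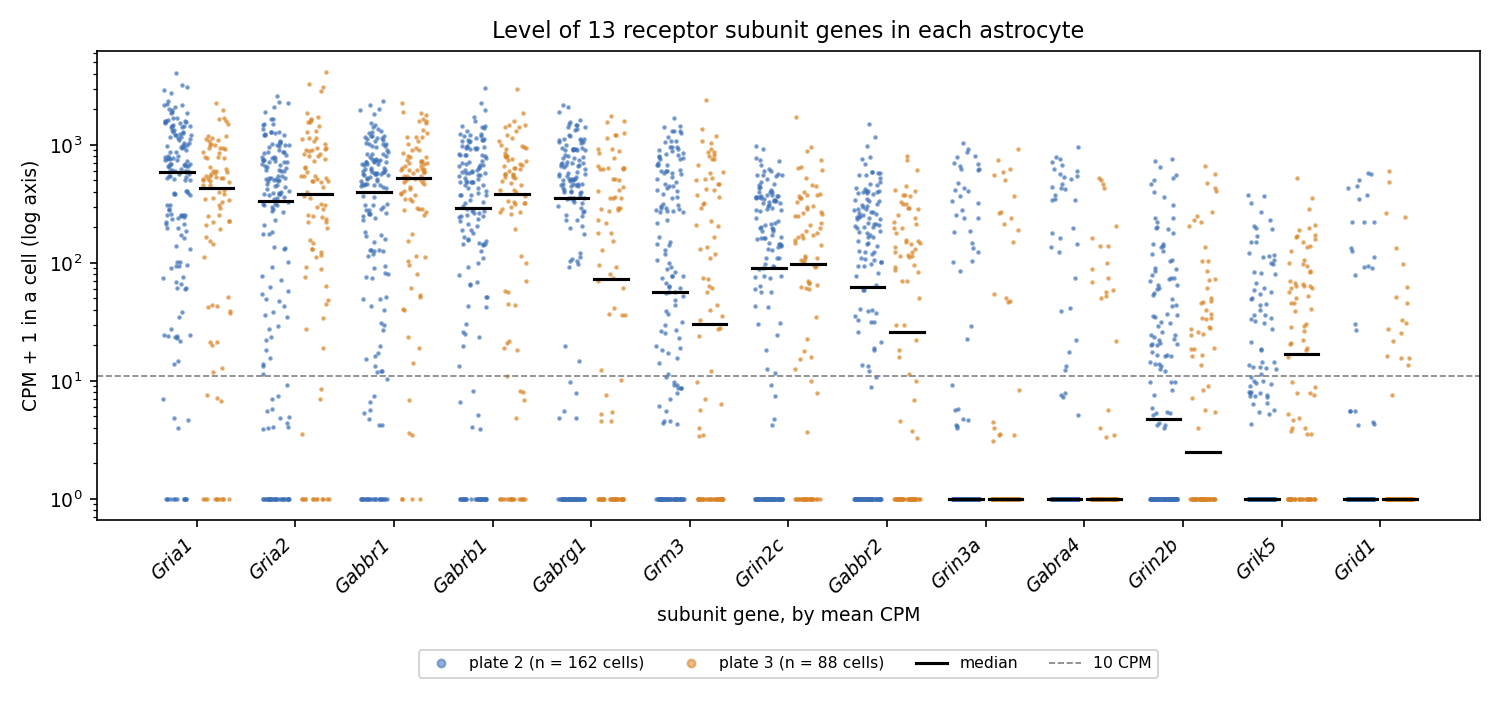
Level of 13 of the subunit genes detected in at least 25 cells, as CPM + 1 on a log axis, with 1 point per cell, plate 2 (162 cells) and plate 3 (88 cells) side by side, black bars for the medians and a dashed line at 10 CPM. The 8 common subunit genes have their medians above the dashed line on both plates and a row of cells at 0, whereas the medians of Grin3a, Gabra4 and Grid1 lie at 0.

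NMDA receptors are glutamate-gated channels that also need a co-agonist, and the Grin1 product is their obligatory subunit. Grin2c (chromosome 11, 115249169 to 115267243, minus strand), a regulatory subunit, was detected in 158 cells (63.2%, interval 56.9 to 69.2%). Its level ran from 0 over a median of 92.7 CPM to 1729 CPM, with a mean of 177 ± 234 CPM. Grin2b, the regulatory subunit that prevails early in neuronal development, was detected in 109 cells (43.6%, interval 37.4 to 50.0%), mostly at low levels, with a median of 3.33 CPM, a highest value of 760.2 CPM and a mean of 58.1 ± 132 CPM. Grin3a, which lowers the calcium flow of the channel, had a different spread over the cells: it was detected in 49 cells (19.6%), where its median was 323 CPM, and its mean over all cells was 76.3 ± 197 CPM.

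Grin1 (chromosome 2, 25291181 to 25319187, minus strand) had 78 reads in all, spread over 8 cells. It was detected in 5 cells (2%, interval 0.653 to 4.61%), with a highest value of 82.4 CPM and a mean of 0.863 ± 7.04 CPM. A Grin2 or Grin3 gene was detected in 208 cells (83.2%, interval 78.0 to 87.6%), and Grin1 beside it in the same 5 cells. Grin1 shares 13.5% of its exon bases with Grin1os on the other strand, and no source used here gives the strand setting of the counting. Grin1os itself had 0 reads, as did Grin2a and Grin2d. Grin3b was detected in 11 cells, with 49.4% of its reads in 1 cell, and shares 32.1% of its exon bases with Tmem259, so its reads are uncertain. Grin2b and Grin2c were detected together in 73 cells.

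Kainate receptors are built from Grik1, Grik2 or Grik3 products, which the Grik4 and Grik5 products need as partners to form a channel. Grik5 (chromosome 7, 25009849 to 25072346, minus strand) was the leading kainate gene, in 94 cells (37.6%, interval 31.6 to 43.9%), with a median of 2.66 CPM, a highest value of 519.6 CPM and a mean of 37.2 ± 74.4 CPM. Grik2 was detected in 17 cells (mean 14.8 ± 78.5 CPM), Grik4 in 18 (5.95 ± 27.2 CPM), Grik1 in 7 and Grik3 in 2. Of the cells with Grik4 or Grik5, 92 had none of Grik1 to Grik3 and 14 had at least 1 of them. Of the delta receptor genes, whose products are channel-like proteins that link synapses, Grid1 was detected in 37 cells (14.8%, interval 10.6 to 19.8%), with a mean of 27.5 ± 97.0 CPM, 4.62 CPM per kb and up to 598 CPM in a cell.

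Metabotropic glutamate receptors fall into a group coupled to phospholipase C, which holds Grm5, and groups that lower cyclic AMP (Grm2 and Grm3, and Grm4, Grm6, Grm7 and Grm8). Grm3 (chromosome 5, 9485541 to 9725170, minus strand) was detected in 149 cells (59.6%, interval 53.2 to 65.7%). Its level ran from 0 over a median of 45.3 CPM to 2396 CPM, with a mean of 264 ± 395 CPM. Grm5, the receptor best known from calcium signals of young astrocytes, was detected in 13 cells (5.2%, interval 2.80 to 8.73%), with a highest value of 729 CPM and a mean of 15.4 ± 79.7 CPM. Both were found together in 7 cells. Grm4 was detected in 20 cells (mean 14.2 ± 58.9 CPM), Grm8 in 6 and Grm7 in 3, and Grm2 and Grm6 had 0 reads. A gene detected in 0 of 250 cells may still be detectable in up to 1.2% of such cells by the limit of 3 counts, and the exact 2-sided interval reaches 1.46% for Grm2, by counting error alone.

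GABA-A receptors are chloride channels, typically built of alpha, beta and gamma subunits. Gabrb1 (chromosome 5, 71658113 to 72149037, plus strand) was detected in 193 cells (77.2%, interval 71.5 to 82.3%), with levels from 0 over a median of 326 CPM to 3024 CPM and a mean of 472 ± 517 CPM. Gabrg1 (chromosome 5, 70751047 to 70842617, minus strand) was detected in 159 cells (63.6%, interval 57.3 to 69.6%), with levels from 0 to 2185 CPM and a mean of 397 ± 469 CPM. Both genes had a row of cells at 0 on each plate, as the plot of levels by cell shows. Of their relatives, Gabrg3 was detected in 6 cells, and Gabrb2 had 0 reads.

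The alpha subunit genes, which help to form the GABA site and set the drug profile of the receptor, were in far fewer cells. Gabra4 was detected in 49 cells (19.6%, interval 14.9 to 25.1%), where its median was 195 CPM, with a mean over all cells of 58.9 ± 163 CPM. Gabra2 was detected in 20 cells (8%, interval 4.95 to 12.1%), its mean was 28.6 ± 131 CPM, and 5 cells held 50% of its summed level. Gabra5 was in 1 cell, and Gabra3 and Gabra6 had 0 reads. Of the other GABA-A genes, Gabrr2 was detected in 2 cells and Gabrq in 1, while Gabrd, Gabre, Gabrp, Gabrr1 and Gabrr3 had 0 reads.

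A beta gene was detected in 197 cells, a gamma gene in 164 and an alpha gene in 67. All 3 kinds were found in the same cell in 33 cells (13.2%, interval 9.26 to 18.0%), close to the 34.8 cells that independent detection would give. A beta with a gamma gene but no detected alpha gene was found in 97 cells (38.8%, interval 32.7 to 45.1%). With or without an alpha gene, a beta and a gamma gene were detected together in 130 cells, against 129.3 if independent. The pair and the triple were thus both near their independent numbers, so the 97 cells do not mark a separate kind of cell. An alpha gene not detected was below the detection threshold and need not be absent. The genes Gabrg1, Gabra2, Gabra4 and Gabrb1 lie in this order in the cluster on chromosome 5. Gabrg1 and Gabra2 are 114979 bp apart, Gabra2 and Gabra4 473899 bp, and the ends of Gabra4 and Gabrb1 overlap by 46 exon bases on opposite strands. The outer genes of the cluster, Gabrg1 and Gabrb1, were thus the common ones and the inner alpha genes the rare ones.

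The GABA-B receptor is a dimer in which the Gabbr1 product binds GABA and the Gabbr2 product couples to the G protein. Gabbr1 (chromosome 17, 37045966 to 37075067, plus strand) was detected in 212 cells (84.8%, interval 79.7 to 89.0%), with levels from 0 over a median of 462 CPM to 2340.5 CPM and a mean of 518 ± 501 CPM. Gabbr2 (chromosome 4, 46662305 to 46991873, minus strand) was detected in 146 cells (58.4%, interval 52.0 to 64.6%), with a median of 44.4 CPM, a highest value of 1511 CPM and a mean of 148 ± 215 CPM. Both were found in 127 cells (50.8%, interval 44.4 to 57.2%), Gabbr1 alone in 85 and Gabbr2 alone in 19. Their levels were weakly related across cells, with a Spearman rho of 0.0745 on plate 2 and 0.176 on plate 3. Points of such a correlation are cells that share their library's depth.

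A cell had a median of 8 detected subunit genes, with a range of 2 to 14, and a summed level of 3411 CPM (quartiles 2684 and 4510.2 CPM, range 697 to 9642 CPM). The median cell had 6 of the 8 common subunit genes, no cell had fewer than 2, and 155 cells had 6 or more. All 8 were detected in 15 cells (6%), where independent detection would give 15.5 cells. An AMPA and an NMDA subunit gene were detected together in 203 cells (81.2%, interval 75.8 to 85.8%), against 202 cells if independent. Among the 28 pairs of the common genes, the number of cells with both was 0.952 to 1.05 times that of independent detection. So the common genes were found together about as often as their separate shares would give.

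The ratio has little room for genes in most cells: for Gria1 with Gabbr1 it could lie between 0.978 and 1.10 at their detection on the 2 plates, and for Gabra4 with Grid1 between 0 and 4.98. Over the 78 pairs of 13 subunit genes detected in at least 25 cells, the ratio ran from 0.816 for Gabra4 with Grik5 (15 cells with both, exact interval 8.49 to 24.3, against 18.4 if independent) to 1.38 for Gabra4 with Grid1 (10 cells with both, interval 4.84 to 18.1, against 7.23). Gabrg1 and Gabra4 were both detected in 27 cells (interval 18.1 to 38.3), against 31.2 if independent. The counts of these 3 pairs were thus within counting error of independent detection. Mean Spearman rho was 0.0123 over the 91 pairs of all 14 subunit genes at that detection, with 0.0234 on plate 2 and 0.00123 on plate 3. No pair passed 0.2 in size: the lowest was Gabrb1 with Grin2b at -0.147 and the highest Grin3a with Grik5 at 0.155. Of the 91 pairs, 30 were positive and 19 negative on both plates.

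**Figure D3:**
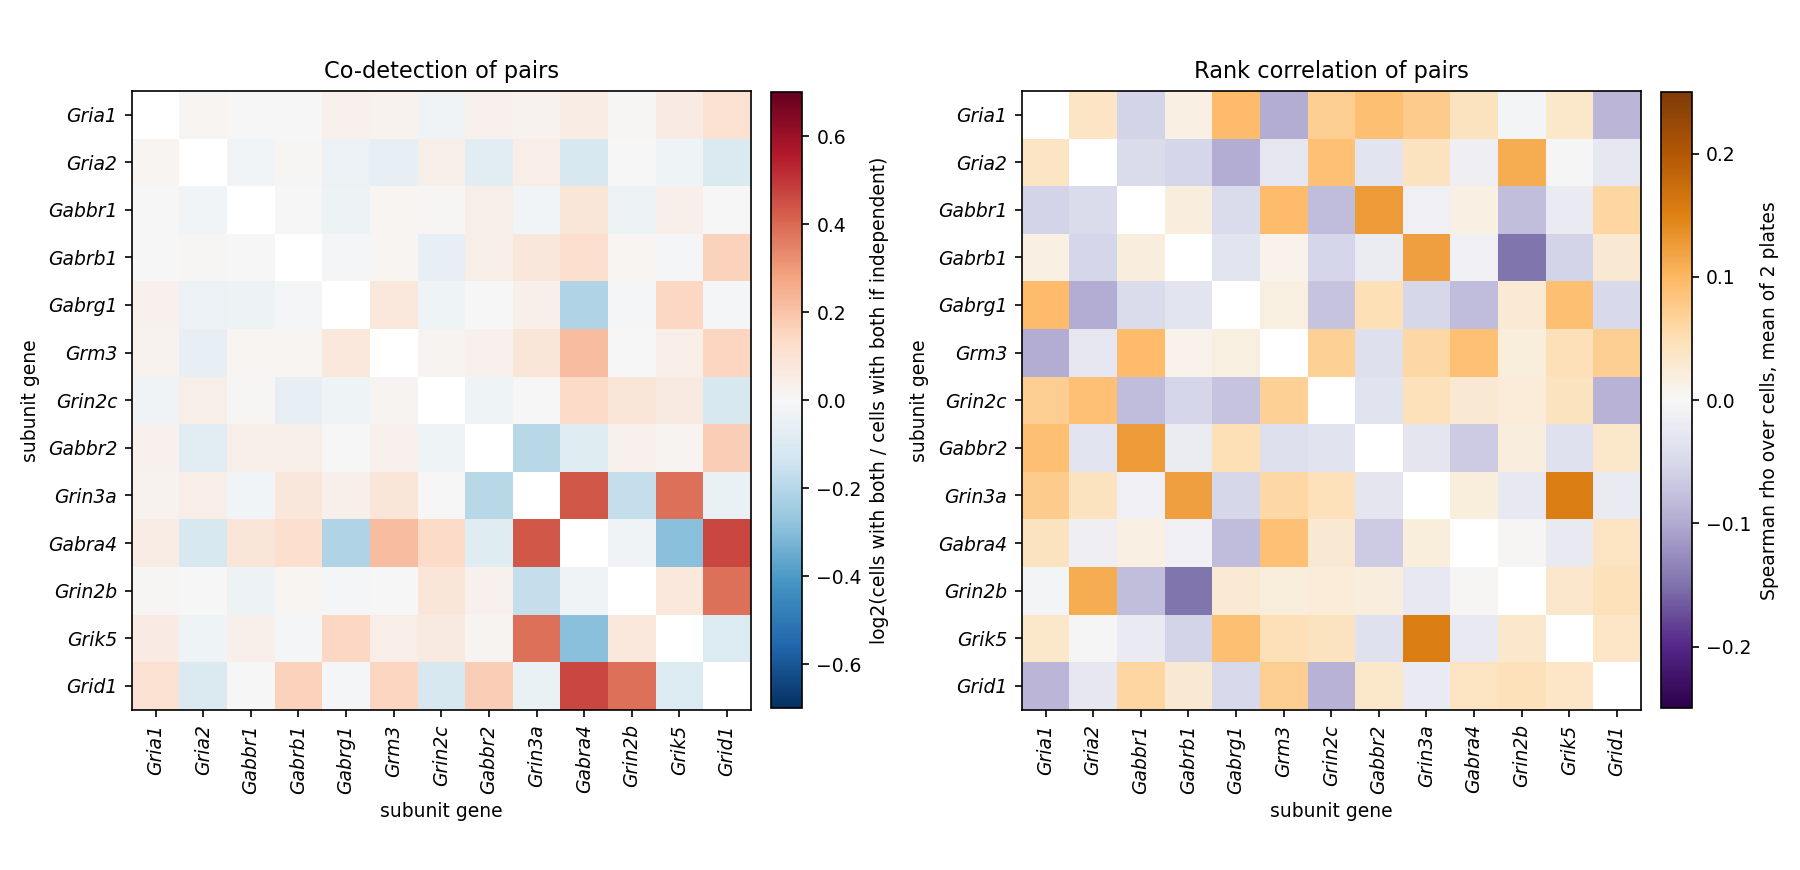
Left, log2 ratio of the cells with both genes of a pair to the number if detections were independent, and right, Spearman rho of CPM over cells (mean of plates 2 and 3), for 13 of the subunit genes detected in at least 25 cells, ordered by mean CPM. The block of the 8 common genes is pale on the left (ratios of 0.952 to 1.05), and the deepest fields are among the rarer genes, up to a ratio of 1.38 for Gabra4 with Grid1.

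The plates gave a repeat of the levels, though not of animals, since the labels do not say which animals filled a plate. Of the 22 members with a mean of at least 5 CPM, 2 were over 2-fold higher on plate 3, where 7.24% of the 10414 genes at that mean were, and 3 were over 2-fold higher on plate 2, where 11.4% were. The median log2 ratio of plate 3 to plate 2 was -0.11 over the members and -0.04 over all those genes. None of the 8 common subunit genes was among the 5. The mean of Gria1 was 746 ± 753 CPM on plate 2 against 511 ± 499 CPM on plate 3, and that of Gria2 467 ± 538 CPM against 631 ± 779 CPM. Of the common genes the most alike were Gabrb1, with 463 ± 510 CPM and 491 ± 532 CPM, and Grin2c, with 173 ± 214 CPM and 186 ± 268 CPM. Gabrg1 had the widest gap of the common genes, with 453 ± 486 CPM on plate 2 against 294 ± 420 CPM on plate 3, and no test of this gap could be made.

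Values are given for 4 of the 5 genes with wider gaps. Gria4 had the highest log2 ratio, 1.67, from 6 cells of plate 2 and 10 of plate 3. Grm5 had 1.26, Grik2 -1.16 and Gabra4 -1.01. Grm5 fell to -0.15 when the cells with 2 or more detected neuron markers were left out, while Gabra4 went to -2.04. Grik5 stood out in detection, with 30.2% of the cells on plate 2 (interval 23.3 to 37.9%) and 51.1% on plate 3 (40.2 to 61.9%). Plate 3 was the more deeply read. With each cell thinned to 50000 reads the shares were 32.1% (interval 25.0 to 39.9%) and 47.7% (37.0 to 58.6%). The gap was then smaller and the intervals overlapped. The mean of Grik5 was 28.8 ± 66.2 CPM on plate 2 and 52.8 ± 85.8 CPM on plate 3. The part of read depth in the gap was not tested.

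**Figure D4:**
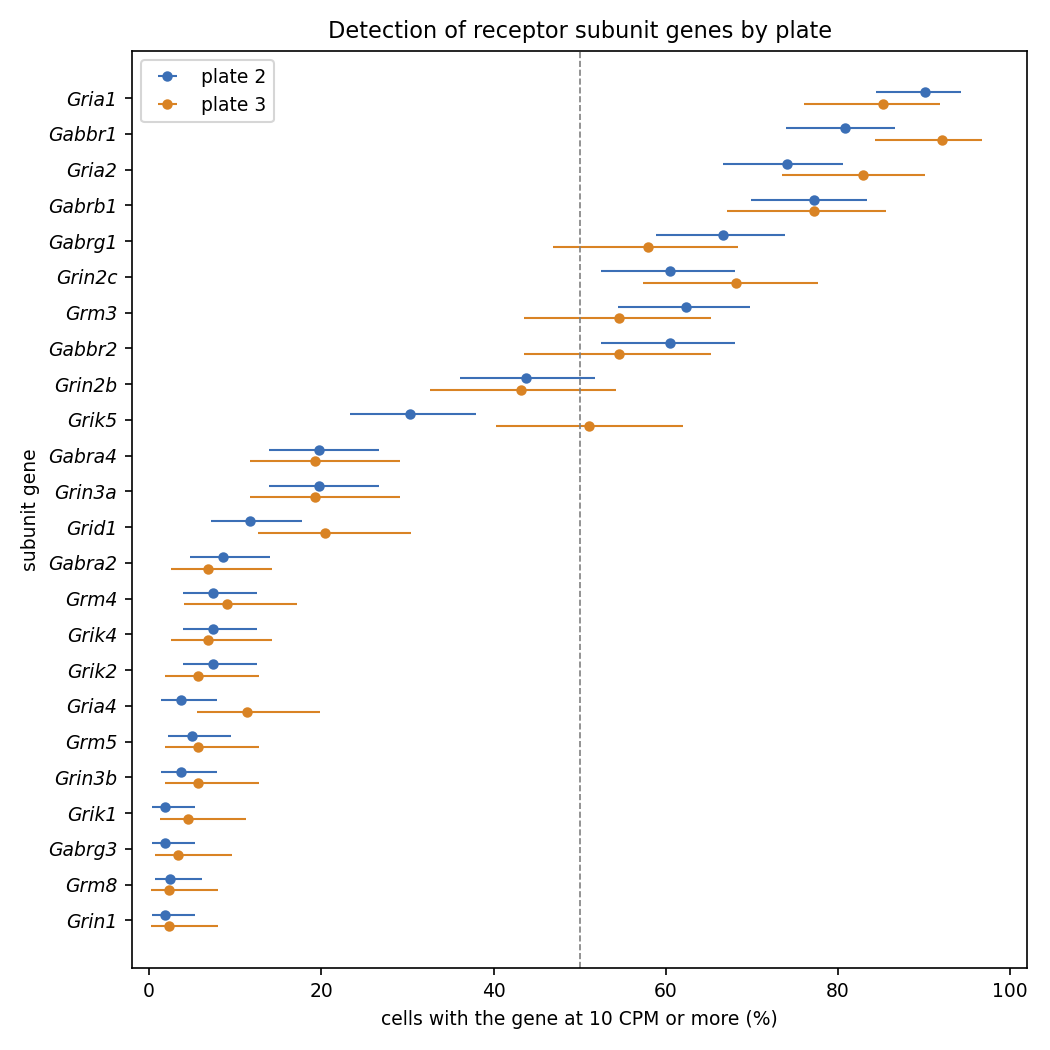
Share of cells with a subunit gene at 10 CPM or more on plate 2 (162 cells) and plate 3 (88 cells), with exact 95% binomial intervals that cover counting error only, for 24 of the subunit genes detected in at least 5 cells. Grik5 is the gene whose intervals are apart (30.2% and 51.1%), and the 8 common genes lie to the right of the dashed line at 50% on both plates.

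Cell-to-cell spread was compared with that of other genes at the same level, as the squared coefficient of variation over a trend on the mean. Of the 15 members with a mean of at least 20 CPM on each plate, 6 lay above the trend on both plates (40%), where 34.2% of all 6381 such genes did. They were Gabra2, Gria2, Grin3a, Grm3, Gabrb1 and Gabrg1. On plate 2 Gabra2 had the highest excess, 1.67 times the trend against 1.22 times for Gria2, while on plate 3 Gria2 had 1.91 times and Gabra2 1.72 times. Grik5 was the most even gene for its level, with 0.421 and 0.362 times the trend. Gabbr2, Grin2b and Grin2c were also below the trend on both plates.

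The genes of most similar pattern were sought for the 3 members of highest mean CPM among 3172 genes detected in at least 25% of the cells, by the mean of the Spearman rho over the cells of each plate. For Gria1 they were Itih3 (0.300, with 0.310 on plate 2 and 0.290 on plate 3), Ptch1 (0.231), Gjb6 (0.227), 2810403A07Rik (0.223) and Hcfc1 (0.218). In cells with a read of both genes the rho of Gria1 and Itih3 was 0.182. For Gria2 they were Htra1 (0.320), Malat1 (0.294), Bcan (0.227), Ccdc141 (0.225) and Sgip1 (0.222). For Gabbr1 they were Snx27 (0.235), Tmem205 (0.230), Cpsf7 (0.215), Pla2g7 (0.202) and Hes5 (0.196). Itih3 codes for a hyaluronan-binding protein, Htra1 for a secreted protease, Bcan for the matrix proteoglycan brevican and Malat1 for a nuclear RNA. These relations are weak, and 95% of the genes lay between -0.150 and 0.148 for Gria2.

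The most opposite genes were looked at after these values had been seen. Gria2 was lower where Nnat was higher, with a rho of -0.395 that was alike on both plates (-0.383 and -0.406). Apoe (-0.366), Cd9 (-0.350), Cpe (-0.328) and Sparc (-0.289) followed. Nnat codes for a small membrane protein of the endoplasmic reticulum and is imprinted, and Apoe codes for the main lipid carrier of astrocytes. Gria1 had a rho of -0.0247 with Nnat, and Gria2 had -0.0574 with Itih3, so the genes most tied to one AMPA subunit gene had values near 0 with the other. Gria1 and Gria2 themselves had a rho of 0.0378 (0.124 on plate 2 and -0.0488 on plate 3). With reads per cell, Gria2 had a rho of -0.0703 and Gria1 0.0734. Of the 42 cells without a Gria2 read, 35 had at least 1000 CPM of Nnat, as did 75 of the 208 cells with a Gria2 read. In cells with a read of both genes the rho of Gria2 and Nnat was smaller, -0.178.

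**Figure D5:**
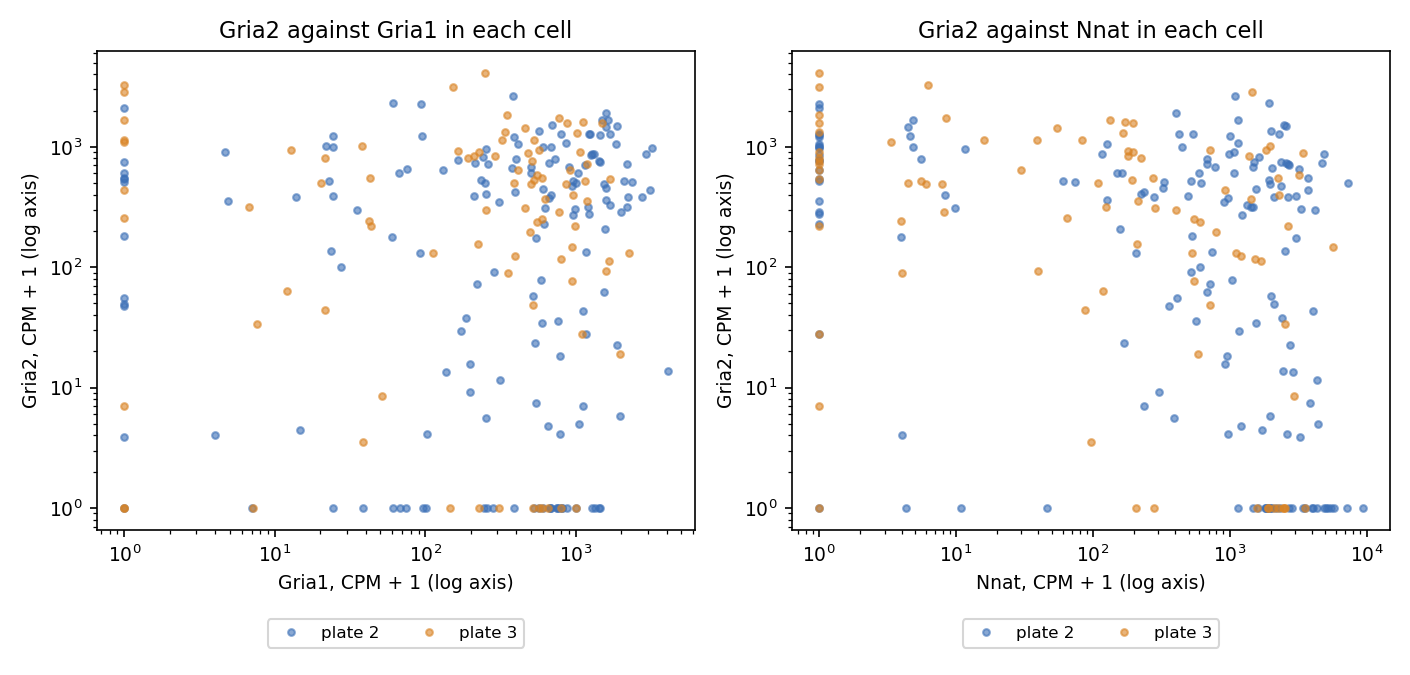
Level of Gria2 in each cell against that of Gria1 (left) and of Nnat (right), as CPM + 1 on log axes, with 1 point per cell and colours for plates 2 and 3. Gria2 and Gria1 form a cloud without a slope, while 35 of the 42 cells without a Gria2 read in the right panel lie above 1000 CPM of Nnat.

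Of 3 Bergmann glia markers, Wif1 had 0 reads, and 51 cells had A2m or Gdf10 while the other 199 had neither. Gria1 had 832 ± 779 CPM in the former and 620.0 ± 651 CPM in the latter, and Gria4, an AMPA subunit gene known from Bergmann glia, was detected in 4 (7.84%, interval 2.18 to 18.9%) and 12 cells (6.03%, interval 3.15 to 10.3%). Gabrb1 was detected in 88.2% (interval 76.1 to 95.6%) and 74.4% (67.7 to 80.3%). The intervals of Gria4 and Gabrb1 overlapped, and all of these cells share the same plates.

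Proteins that work with the receptors were counted in 8 lists with 76 genes in all. The lists were chosen with earlier results of these data known, so their share beside that of all genes is description only. Of the 73 with a read, 12 passed 50% of the cells (16.4%), against 5.92% of all genes with a read. Of 12 auxiliary proteins of AMPA receptors, Shisa9 was the only one, in 157 cells with 257 ± 360.3 CPM, followed by Cacng5 in 56 cells with 117 ± 309 CPM. The classical neuronal auxiliary gene Cacng2 was detected in 2 cells, Cacng3 in 0. None of 14 genes for scaffolds and other partner proteins of glutamate receptors passed, with Nsf in 68 cells (86.5 ± 196 CPM) and Dlg4 in 77 (38.0 ± 84.6 CPM). None of 6 partners of kainate and delta receptors passed either, with Neto2 in 11 cells (10.3 ± 61.1 CPM) and Cbln2 in 2 (2.86 ± 40.4 CPM).

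Of 9 genes for the making and transport of the co-agonists of NMDA receptors, 4 were in at least 50% of the cells, and the median detection of the list was 41.6%. Slc7a10, a serine exchanger, was detected in 248 cells (1965 ± 1037 CPM), and Slc6a9, the glycine transporter of glia, in 239 (1036 ± 671 CPM). Slc1a4, a further serine carrier, was detected in 198 cells (682 ± 669 CPM) and Phgdh, the first enzyme of serine synthesis, in 189 (95.9 ± 94.1 CPM). Srr, which makes D-serine, was among those that did not pass, in 40 cells (29.7 ± 100.2 CPM). Of 12 GABA-A partners 3 passed: Clptm1, which retains GABA-A receptors in the cell, in 171 cells (378 ± 445 CPM), Gabarap, which aids their transport, in 163 (238 ± 282 CPM), and Gphn, the scaffold gephyrin, in 129 (150.5 ± 265 CPM). Of 4 GABA-B partners none passed, with Kctd12 in 19 cells (27.3 ± 135 CPM) and Kctd12b in 18 (26.6 ± 122 CPM).

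In metabotropic signalling 4 of 17 genes passed. Itpr2, the calcium release channel typical of astrocytes, was detected in 153 cells (275 ± 360 CPM) and Plcb1, a phospholipase C, in 173 (263 ± 371 CPM). The G protein genes Gnao1 and Gnai2, of the kind that GABA-B and group II receptors use, were detected in 151 cells (161 ± 227 CPM) and 142 (146 ± 212 CPM). None of 3 chloride transport genes passed. The channel gene Clcn2 was detected in 78 cells (100.1 ± 238 CPM), Slc12a2, which takes up chloride, in 26 (28.5 ± 122 CPM), and Slc12a5, the chloride extruder of neurons, in 3.

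Since neurons carry many of these subunits, detection was set beside the number of neuron markers of a cell. No neuron marker was detected in 87 cells, 1 in 96 cells and 2 or more in 67 cells, and the summed level of the list was 0 to 15.5 CPM, 10.5 to 724 CPM and 25.8 to 2464 CPM. The median was 8 detected subunit genes in each of these sets. Gria1 was detected in 92.0, 91.7 and 79.1% of them, Gabbr1 in 81.6, 88.5 and 83.6% and Gabrb1 in 77.0, 83.3 and 68.7%. Each of the 8 common genes was detected in at least 62.1% of the cells with no neuron marker. Grin3a went the other way, with 9.20% (interval 4.05 to 17.3%) in cells without a marker against 25% (16.7 to 34.9%) and 25.4% (15.5 to 37.5%), and the part of neuronal RNA in this was not tested. Grin1 was detected in 1, 3 and 1 of the cells.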

How the data were processed

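The authors' deposited table holds raw read counts per gene for each of 250 cells, and their second deposited table holds a score, the count scaled to 500000 per cell and rounded (100% of entries were equal to this calculation). That table was not used further. The aligner was STAR 2.4.2a and the build mm10, per the submitters' processing notes, with the counting tool, strand setting, annotation and cell filter not given in the sources used here. Members, gene lists, marker lists and measures were chosen with earlier results of these data known. CPM was computed on the total count of each cell, and no cell was removed. Intervals are exact (Clopper-Pearson) and cover counting error only, since copied reads are not independent molecules. Values are shown for members in at least 20% of the cells, for the highest member of each family and for those with the extreme plate ratios, and for list genes in at least 50% of the cells and the highest 2 of each list. Other genes were named after their values were seen. Lengths and positions come from GENCODE M21 (GRCm38), 1-based. Rank correlations were computed within each plate and averaged. The trend of variation is a lowess fit (span 0.1, statsmodels 0.14.6) of log squared coefficient of variation on log mean. Independent detection means the product of the shares on each plate, turned into a number of cells and summed over the 2 plates. Scripts used Python 3.11.15, numpy 2.4.6, pandas 2.3.3 and scipy 1.17.1, and were tested on simulated data. Alternatives were 1 read or 50 CPM as the threshold, thinning to 50000 reads, each plate alone, totals without the 20 highest genes, and leaving out cells with 2 or more neuron markers. Values of some genes that this rule names are not reported here, and they are left out of the figures.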

Additional observations from a re-analysis of the deposited data

How the results depend on the processing

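The number of members in at least 50% of the cells was 10 with 1 read as the threshold and 6 at 50 CPM, and 8 or 9 under the other alternatives, all within 1.5 times. Cells with both GABA-B subunit genes moved to 39.6% at 50 CPM, and cells with an AMPA and an NMDA subunit gene to 70% at 50 CPM and 88% with 1 read. Members past 2-fold between plates were 12 of 32 when every member with a read on both plates was counted. That rule also admits genes of very few reads, and the share of all genes under it was not computed. Without the cells with 2 or more neuron markers there were again 5 such members, but 4 of them were shared, as Grm5 was lost and Grin3a gained. Cells with a GABA-A alpha, beta and gamma gene stayed between 10.2% and 17.2%, and mean pairwise rho between 0.00123 and 0.0234. For the 10 members in at least 20% of the cells, the mean CPM was set beside its value over all cells. It was 0.773 to 1.14 times that value on plate 2 alone and 0.742 to 1.42 times on plate 3 alone. Without the 20 highest genes in the total it was 1.23 to 1.24 times. Leaving out the highest cell gave 0.948 to 0.986 times, and leaving out cells with 2 or more neuron markers 0.928 to 1.06 times. The other alternatives were not applied to the means. Alternatives for single correlations were chosen after seeing the data: the rho of Gria2 and Nnat ranged from -0.445 to -0.178, and that of Gria1 and Itih3 was 0.182 in cells with a read of both genes. No paired analysis was possible because the cells form 1 group and the result comes from no test. Depth limits the rare genes, as 10 CPM is 2.82 reads in the median cell.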
